A study of Homo sapiens with 4 samples.

Results

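The genes described here are 9 that put uracil into DNA or deal with it there: the cytidine deaminases APOBEC3B, APOBEC3C, APOBEC3F and APOBEC3G, the DNA glycosylases UNG, SMUG1, TDG and MBD4, and the DNA polymerase gene POLH. Their probe sets were chosen by annotation, as every one that names one of these symbols, which gave 15 of 22277 probe sets, for 9 of 11963 genes with a probe set of their own. Of these, 14 name a single gene and 1, 214995_s_at, names APOBEC3F together with APOBEC3G. The samples were 2 human Philadelphia chromosome-positive acute lymphoblastic leukemia lines, both carriers of the BCR-ABL1 fusion kinase. The groups were SUP-B15 after 16 h in STI571 at 10 μmol/l (imatinib, which inhibits BCR-ABL1), SUP-B15 cultured without it, BV-173 with the same dose and time, and BV-173 cultured without it. Each group held 1 array of total RNA, so nothing was replicated and precision is limited throughout by the 4 arrays. Whether the untreated cells received a vehicle is not given in the sources used here.

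APOBEC3 enzymes turn cytosine into uracil in single-stranded DNA and are best known for restricting retroviruses; APOBEC3B is found in the nucleus and has been linked to mutations of cancer genomes. A uracil in DNA is cut out by a glycosylase, of which UNG is the main one at replication forks and in antibody diversification. SMUG1 also removes uracil, while TDG and MBD4 act on uracil or thymine opposite guanine. The gap is then filled by base excision repair, or the lesion is copied by a translesion polymerase such as polymerase eta, the product of POLH. In B cells the same lesions and repair enzymes serve somatic hypermutation and class switching.

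Both lines carried the B precursor signals that their labels call for. Of 8 B precursor markers, 6 had a probe set of their own and all 6 were above the array's median signal in all 4 arrays. Of 8 T and NK cell markers, 7 were below the median in all arrays and 1, NKG7, was above it in all 4, at 192.5 and 391.7 in SUP-B15 with and without STI571 and 274.6 and 146.6 in BV-173 with and without it. The summed T and NK signal was 408 and 592 in SUP-B15 with and without STI571, and 516 and 462 in BV-173. The summed B precursor signal was 43815 and 32699 in SUP-B15 with and without STI571, and 20015 and 9236 in BV-173. DNTT was the largest term of that sum in every array, at 29317.1 and 22250.7 in SUP-B15 with and without STI571 and 11815 and 3646.2 in BV-173. CD22 was lower in SUP-B15, at 379.4 and 711.7 against 1033.5 and 983.2 in BV-173. CD79A was lower with STI571 in both lines, at 1582.5 against 1632.6 untreated in SUP-B15 and 502.3 against 897.3 untreated in BV-173. CD79B, PAX5, VPREB1 and DNTT were higher with STI571 in both lines, and CD22 was lower in SUP-B15 and higher in BV-173. Of 8 myeloid markers, 5 were below the median in all arrays and 0 above it in all. MPO was above it in both SUP-B15 arrays (162 and 196.2 with and without STI571) and in neither BV-173 array (59.3 and 8.3), and CEBPA was above it in 3 of the 4 arrays. The part of these markers in the results below was not tested. The arrays' median signals ranged from 95.5 to 115.0, the 3'/5' ratio of GAPDH, a measure of RNA integrity, from 1.12 to 1.20, that of ACTB from 2.08 to 2.40, and the 18S ribosomal RNA control was 2817 in STI571-treated BV-173 against 1513 to 1596 in the other arrays.

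The promoter sequences that bear on the genes described most closely are given first, for UNG, which had the largest mean change with STI571, and for MBD4, the only matched gene whose promoter held a searched motif. They are the 250 bases before the start site, 5′ to 3′, from RefSeq on GRCh38.p14. The promoter table used here was matched for 4 of the 9 genes, with 5 promoters (UNG with 2 starts, TDG, MBD4 and POLH). The motifs were E2F (TTTCCCGC or TTTGGCGC), the site of the factors that drive S phase genes, and the core of the interferon-stimulated response element (GAAANNGAA), each on both strands. Capitals mark a match.
UNG, first start, chr12:109097347-109097596, plus strand: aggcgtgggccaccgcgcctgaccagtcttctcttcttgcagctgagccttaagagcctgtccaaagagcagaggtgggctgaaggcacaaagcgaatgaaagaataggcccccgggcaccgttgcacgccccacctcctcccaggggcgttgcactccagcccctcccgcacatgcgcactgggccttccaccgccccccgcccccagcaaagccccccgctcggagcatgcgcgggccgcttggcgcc
UNG, second start, chr12:109097922-109098171, plus strand: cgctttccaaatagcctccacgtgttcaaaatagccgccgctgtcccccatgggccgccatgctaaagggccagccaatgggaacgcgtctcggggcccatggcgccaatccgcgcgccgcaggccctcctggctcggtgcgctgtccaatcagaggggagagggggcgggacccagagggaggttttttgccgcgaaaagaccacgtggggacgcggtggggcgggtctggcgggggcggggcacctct
MBD4, chr3:129439949-129440198, minus strand: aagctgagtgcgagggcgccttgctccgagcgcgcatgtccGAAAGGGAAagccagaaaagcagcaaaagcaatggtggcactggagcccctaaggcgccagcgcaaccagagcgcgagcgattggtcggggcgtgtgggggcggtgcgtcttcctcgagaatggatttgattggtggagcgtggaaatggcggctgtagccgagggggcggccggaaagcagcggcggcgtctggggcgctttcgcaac

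The 2 motifs were rare in all promoters searched. Either E2F spelling was found in 677 of 35116 promoters (1.93%) and the response element core in 2416 (6.88%). Among the 5 member promoters 0 held an E2F spelling and 1, that of MBD4, held the response element core. GC content of the 250 bases was 68.0% at both UNG starts, 64.0% in TDG, 64.4% in MBD4 and 76.0% in POLH, against a median of 58.0% over all promoters. A match, or none, describes these letters in this window and no more.

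A change is given below as a difference of log2(signal + 24.5), where 24.5 is the lower quartile of the whole table. On that scale changes of dim probe sets are understated. A probe set was tested if it reached its array's median in at least 1 array. That kept 14 of the 15 members and 13408 probe sets in all. The limma fit took the line and the treatment as terms over the 4 arrays, and p-values were adjusted over all 13408 probe sets. It leaves 1 residual degree of freedom, so each standard error (SE) is read from the trend of the spread with brightness and is not the probe set's own. On simulated data the STI571 term of this fit made more false calls than an adjusted p of 0.05 allows, so its adjusted p-values are too small. The line term was not simulated. It has the same SE for each member and the same 1 residual degree of freedom, so its adjusted p-values need the same caution. Responses of a single line are differences of 2 arrays and carry no test.

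APOBEC3B was lower in SUP-B15 than in BV-173, by 8.43-fold on the scale used, a size that moves with the value added before the log2 step. Also lower there were APOBEC3C, by 1.99-fold, and APOBEC3G, by 1.83-fold at 204205_at. The lines overlapped at 214995_s_at, which names APOBEC3G with APOBEC3F. TDG was 2.1-fold higher in SUP-B15 by the brighter of its 2 probe sets. For the line, 4 of the 14 tested members passed, beside 25.9% of all tested probe sets, a share near the members' own. Without the intensity trend APOBEC3B was the only member to pass. Of the 14 tested members, 0 passed the test for STI571 (2.75% of all tested probe sets did). An unadjusted limma p under 0.05 was found for 1 member, UNG, beside 1539 of all 13408 tested probe sets. UNG had lower signals in the treated array of both lines.

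**Figure D1:**
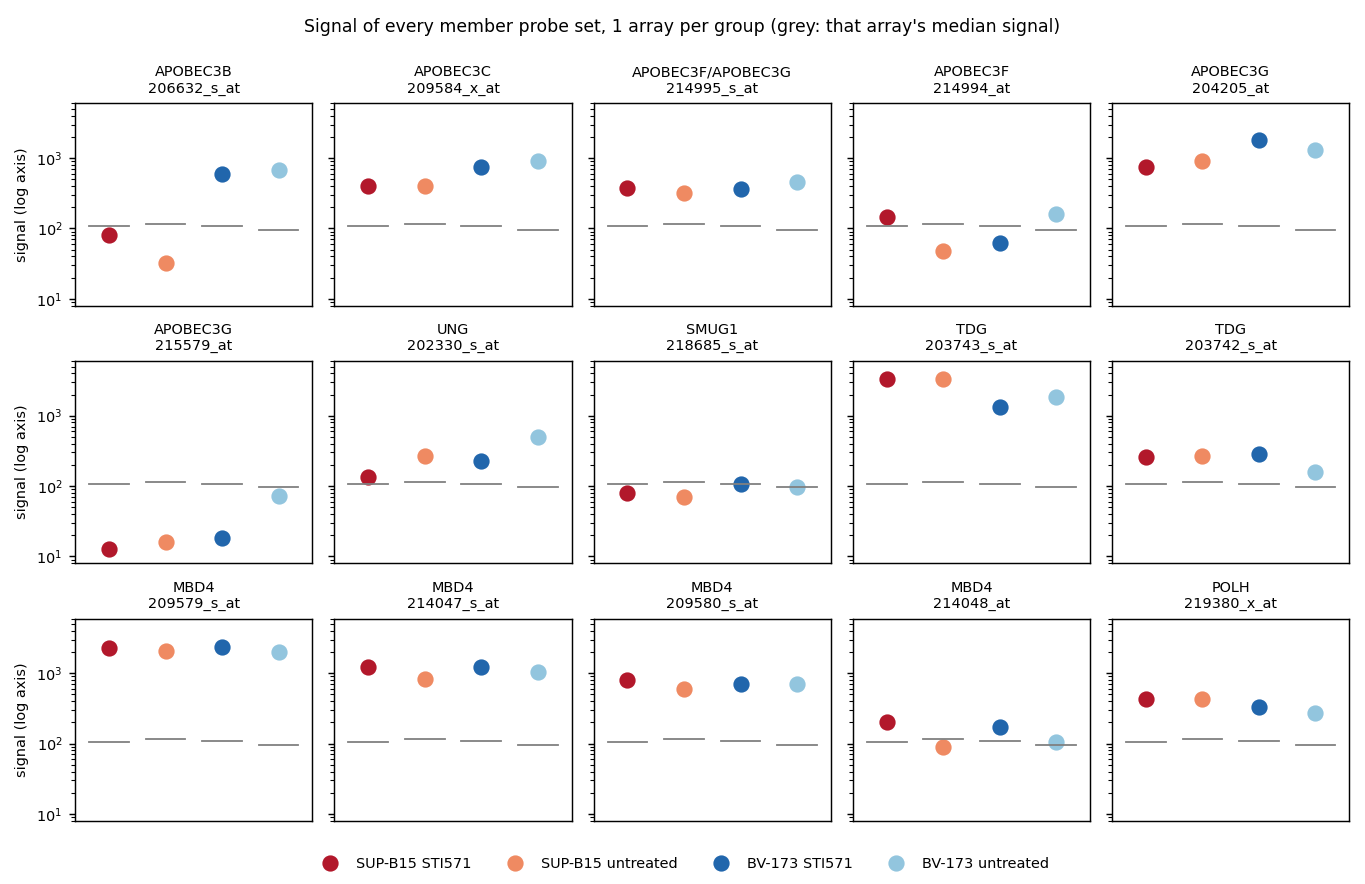
Signal of each of the 15 member probe sets (log axis, arbitrary intensity units) in the 4 arrays, STI571-treated left of untreated in each line and SUP-B15 left of BV-173; each point is 1 array and the grey line is that array's median signal. APOBEC3B sits at 81.8 and 31.7 in SUP-B15 and at 586.2 and 671.5 in BV-173.

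The deaminase genes lie side by side on chromosome 22, where RefSeq lists 7 APOBEC3 genes in a row with no other protein-coding gene starting between them. APOBEC3B gave a signal of 81.8 in STI571-treated and 31.7 in untreated SUP-B15, against 586.2 in treated and 671.5 in untreated BV-173. Both SUP-B15 arrays lay under their array's median and both BV-173 arrays above it, and the lines did not overlap. The difference, SUP-B15 minus BV-173, was −2.52 between treated arrays and −3.63 between untreated arrays, with a mean of −3.08 (SE 0.38, limma adjusted p = 1.48e-14). APOBEC3B entered the test only through BV-173, where it is high; with no filter its adjusted p was 2.58e-09, in a range of 3.37e-16 to 0.0233 over the other settings. The size of the difference was −3.59 with a pseudocount of 1 and −2.25 with one of 98.

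With STI571, the APOBEC3B signal changed by a log2 value of 0.92 in SUP-B15 and −0.19 in BV-173. The treated SUP-B15 array was thus the higher of its pair, the treated BV-173 array the lower, and the mean of 0.37 (SE 0.38) did not pass (limma adjusted p = 0.836). The single probe set, 206632_s_at, carries the maker's mark for probes shared by several transcripts.

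APOBEC3C, the deaminase gene next to it, had signals of 396.1 and 406.2 in treated and untreated SUP-B15, against 738.7 and 914.0 in treated and untreated BV-173. The lines did not overlap, and SUP-B15 was lower by a mean log2 difference of −0.99 (SE 0.25, limma adjusted p = 0.000751). That call ended without the intensity trend (limma adjusted p = 0.103). The change with STI571 was −0.03 in SUP-B15 and −0.30 in BV-173, with a mean of −0.17 (SE 0.25, limma adjusted p = 0.909). Its probe set, 209584_x_at, is marked by the maker for probes that resemble other sequences, which in a family of near copies can include its neighbours.

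APOBEC3G, the family member best known for blocking HIV without its Vif protein, was read by 204205_at at 751.6 and 917.1 in treated and untreated SUP-B15, against 1788.5 and 1324.4 in treated and untreated BV-173. SUP-B15 was again below BV-173 in both conditions, by a mean log2 difference of −0.87 (SE 0.22, limma adjusted p = 0.000691), a call that ended without the intensity trend (limma adjusted p = 0.161). The lines lay further apart among treated arrays, at −1.22, than among untreated arrays, at −0.52. STI571 went with a change of −0.28 in SUP-B15 and 0.43 in BV-173, and the mean of 0.07 (SE 0.22) did not pass (limma adjusted p = 0.962). A further probe set of APOBEC3G, 215579_at, was below the median in all 4 arrays, at 12.6 and 16.1 in treated and untreated SUP-B15 against 18.1 and 72.6 in treated and untreated BV-173, and was the 1 member not tested. At 214995_s_at, shared with APOBEC3F, the lines overlapped and did not pass (mean log2 difference −0.23, limma adjusted p = 0.624).

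APOBEC3F was read by 2 probe sets whose responses differed in size. Its own, 214994_at, gave 144.2 in treated and 47.1 in untreated SUP-B15, against 62.0 in treated and 161.3 in untreated BV-173. The treated array was the brighter in SUP-B15 and the dimmer in BV-173, with log2 changes of 1.24 and −1.10, the widest gap between the responses among the tested members (2.34). The probe set shared with APOBEC3G, 214995_s_at, gave 370.0 and 322.4 in treated and untreated SUP-B15 and 369.0 and 451.2 in treated and untreated BV-173, with log2 changes of 0.19 and −0.27.

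Both probe sets of APOBEC3F had a positive change in SUP-B15 and a negative one in BV-173, and the dimmer one crossed its array's median in each line. The brighter one also names APOBEC3G, whose own tested probe set, 204205_at, changed by −0.28 in SUP-B15 and 0.43 in BV-173. Neither of the APOBEC3F probe sets passed for STI571 (mean log2 changes of 0.07 and −0.04, SE 0.60 and 0.29, limma adjusted p = 0.991 and 0.987). They did not pass for the line either (mean log2 differences of −0.21 and −0.23, limma adjusted p = 0.845 and 0.624).

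**Figure D2:**
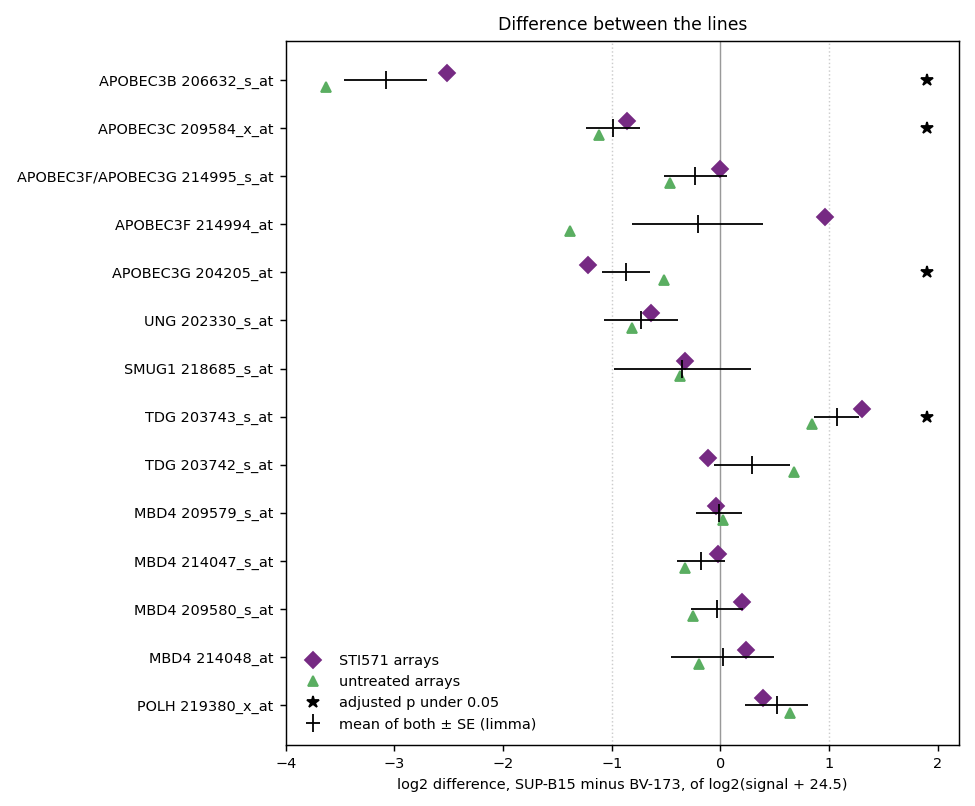
Log2 difference of signal, SUP-B15 minus BV-173, for the 14 tested probe sets; diamonds are the treated arrays, triangles the untreated arrays, the bar is the mean with its limma SE, and a star marks an adjusted p under 0.05. APOBEC3B lies at a mean of −3.08, APOBEC3C and APOBEC3G 204205_at lie near −1, and TDG 203743_s_at lies at 1.07.

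Among the glycosylases, UNG had signals of 135.3 in treated and 269.8 in untreated SUP-B15, against 225.1 in treated and 490.6 in untreated BV-173. Treated cells were lower in both lines, with log2 changes of −0.88 (1.84-fold) in SUP-B15 and −1.05 (2.06-fold) in BV-173, and all 4 arrays were above their median. The mean of −0.96 (SE 0.34) had an unadjusted limma p of 0.00409 and an adjusted p of 0.106. It stayed between −1.06 and −0.76 over the other settings, with adjusted p-values of 0.0898 to 1 (the 1 without a block for the cell line). In bulk RNA, fewer cells in the cycle phase that expresses a gene and less RNA per cell cannot be told apart. SUP-B15 was lower than BV-173 by −0.64 among treated and −0.81 among untreated arrays, a mean of −0.73 (SE 0.34) that did not pass (limma adjusted p = 0.097). The annotation does not say which of the mitochondrial and nuclear forms of UNG the probes read.

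TDG, which removes thymine or uracil opposite guanine and takes part in DNA demethylation, was read by 2 probe sets. The brighter, 203743_s_at, gave 3294.0 and 3273.7 in treated and untreated SUP-B15, against 1320.9 and 1815.5 in treated and untreated BV-173. Both SUP-B15 arrays were above both BV-173 arrays, by a mean log2 difference of 1.07 (SE 0.21, limma adjusted p = 2.95e-06), a call that ended without the intensity trend (limma adjusted p = 0.0982). The dimmer, 203742_s_at, gave 262.3 and 266.7 in treated and untreated SUP-B15 and 284.6 and 157.3 in treated and untreated BV-173, so that the lines overlapped, with a mean difference of 0.29 (SE 0.35, limma adjusted p = 0.602).

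With STI571 the TDG signal of SUP-B15 was nearly level by both probe sets, with log2 changes of 0.01 and −0.02. In BV-173 they disagreed in sign, at −0.45 for the brighter and 0.77 for the dimmer. Neither mean passed, −0.22 (SE 0.21) and 0.37 (SE 0.35), each with a limma adjusted p of 0.812.

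MBD4, a glycosylase with a domain that binds methylated CpG, was read by 4 probe sets. The brightest, 209579_s_at, gave 2297.3 and 2048.1 in treated and untreated SUP-B15, against 2359.0 and 2022.5 in treated and untreated BV-173. Those lines differed by a mean log2 value of −0.01 (SE 0.21, limma adjusted p = 0.98), and the line differences of the other MBD4 probe sets lay between −0.18 and 0.02. None of the 4 passed for the line.

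Treated cells gave the higher MBD4 signal in all 4 probe sets in SUP-B15 and in 3 of the 4 in BV-173. In SUP-B15 the log2 changes were 0.16, 0.55, 0.42 and 1.02 for 209579_s_at, 214047_s_at, 209580_s_at and 214048_at. In BV-173 they were 0.22, 0.24, −0.03 and 0.58 in the same order. The means, 0.19, 0.40, 0.20 and 0.80, did not pass (limma adjusted p = 0.527 to 0.878). The largest came from the dimmest probe set, 214048_at, which had 205.0 and 88.5 in treated and untreated SUP-B15 and 169.5 and 104.9 in treated and untreated BV-173. These probe sets read 1 gene on the same arrays and are not replicates of the treatment.

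SMUG1, a glycosylase that also removes oxidised pyrimidines, was read near the median by 218685_s_at, at 78.3 and 70.4 in treated and untreated SUP-B15 and 105.0 and 98.1 in treated and untreated BV-173. It was tested because untreated BV-173, at 98.1, passed its array's median of 95.5. The log2 changes with STI571 were 0.12 in SUP-B15 and 0.08 in BV-173, and the SE of their mean, 0.63, was the widest among the tested members (limma adjusted p = 0.986).

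POLH, whose polymerase copies past ultraviolet damage and makes mutations at A and T bases in antibody genes, gave 435.8 and 435.5 in treated and untreated SUP-B15, against 326.4 and 270.3 in treated and untreated BV-173. SUP-B15 was above BV-173 in both conditions without passing (mean log2 difference 0.52, SE 0.29, limma adjusted p = 0.193). The change with STI571 was 0.00 in SUP-B15 and 0.25 in BV-173 (mean 0.13, SE 0.29, limma adjusted p = 0.952). The single POLH probe set, 219380_x_at, is marked by the maker for probes that resemble other sequences.

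**Figure D3:**
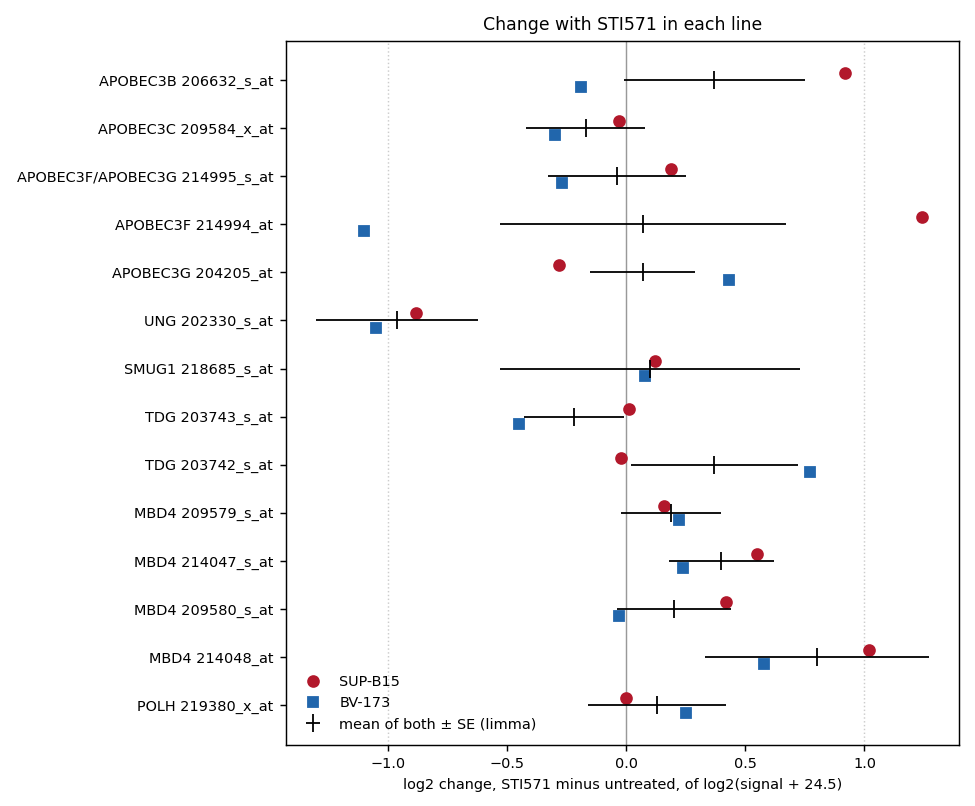
Log2 change of signal with STI571 (treated minus untreated) for the 14 tested probe sets, with a circle for SUP-B15, a square for BV-173 and the mean of both with its limma SE; dotted lines mark 2-fold. UNG is near −1 in both lines, and APOBEC3F 214994_at is at 1.24 in SUP-B15 and −1.10 in BV-173.

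Set against the whole array, the members' counts were as follows. For STI571 over both lines 2.75% of all tested probe sets passed, and 0 of 14 members did. In the 12 other fits 0 members passed too, with 3 to 15 members tested. UNG was not among the 3 tested with gene-specific probe sets alone. At an unadjusted limma p under 0.05 there was 1 member, beside 1539 of all 13408 probe sets. The median change of the members was 0.11, beside 0.02 for all probe sets. A change of 2-fold or more was seen in SUP-B15 for 2 members, both higher in treated cells (APOBEC3F 214994_at and MBD4 214048_at), where 9.87% of all probe sets reached 2-fold, 4.49% of them upward. In BV-173 it was also 2 members, both lower in treated cells (APOBEC3F 214994_at and UNG), where 12.1% of all did, 5.1% downward. The response of SUP-B15 exceeded that of BV-173 by 2-fold or more for 2 members (APOBEC3B and APOBEC3F 214994_at), as it did for 7.81% of all probe sets. With 14 members, counts of 2 are small and no departure from the array-wide shares was tested.

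Between the lines, 25.9% of all tested probe sets passed, and 4 of 14 members did. Lower in SUP-B15 were 3 (APOBEC3B, APOBEC3C and APOBEC3G 204205_at), beside 12.5% of all, and 1 was higher (TDG 203743_s_at), beside 13.5%. The passing share of the members, 4 of 14, is near the array's own. Non-overlap of the lines was found for 6 of 14 members, 2 with SUP-B15 above and 4 with it below, beside 58.6% of all (29% above and 29.6% below). The responses of the 2 lines had the same sign for 7 of 14 members, 5 higher and 2 lower in treated cells, beside 55.2% of all probe sets (29% higher and 26.2% lower).

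Related genes were taken from 7 lists, with the brightest tested probe set for each gene. The lists were chosen with earlier results of these data known, so their counts beside those of all genes describe them and are not an independent test. All STI571 calls among them, those of CDC45, GINS2, MCM4, FEN1, RFC2 and ADA below included, ended without the intensity trend and without the line as a block, 2 limma fits in which 0 of 13408 probe sets were called (1024 and 131 had an unadjusted p under 0.05). Over 7916 genes, 1.41% passed as higher and 1.63% as lower with STI571, and 14.4% and 14.2% as higher and lower in SUP-B15. S phase genes had the median furthest from 0 of the 7 lists, at −0.65, beside 0.02 for all genes. With STI571, 4 of 15 fell and 0 rose. Changes were negative in each line for 13 of 15, beside 26.5% of all genes. CDC45, which helps form the helicase of the replication fork, fell by 1.68 on the log2 scale (SE 0.33, limma adjusted p = 6.69e-05). GINS2, of the same helicase, fell by 1.3 (SE 0.24, limma adjusted p = 1.72e-05) and the helicase subunit MCM4 by 1.02 (SE 0.21, limma adjusted p = 0.000196). UNG, whose expression is known to peak around S phase, had changes of the same sign as this list's median in both lines; the part of the list's shift in the UNG value was not tested.

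Repair steps that follow the glycosylase gave a mixed picture. In the base excision list 1 of 15 fell and 0 rose, with a median of 0.02. The gene was FEN1, the nuclease that trims the flap of long-patch repair and of Okazaki fragments, at 1032.6 and 1665.9 in treated and untreated SUP-B15 and 1004.4 and 2015.7 in treated and untreated BV-173 (mean −0.83, SE 0.22, limma adjusted p = 0.00821). The DNA ligase genes LIG1 and LIG3 had means of −0.76 and −0.56 and did not pass (limma adjusted p = 0.338 and 0.555). Between the lines, 4 base excision genes were lower in SUP-B15 and 1 was higher.

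In mismatch repair, which B cells also use to turn uracils into mutations, 1 of 11 fell and 0 rose, with a median of −0.30. RFC2, a subunit of the loader of the sliding clamp, fell by 1.0 (SE 0.22, limma adjusted p = 0.00079). The exonuclease gene EXO1 had −0.89 in SUP-B15 and −1.05 in BV-173 (limma adjusted p = 0.0528), and PCNA, the clamp itself, −0.16 and −0.77 (limma adjusted p = 0.283).

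Genes that set the supply of uracil and thymine nucleotides had 0 of 10 called for STI571, with a median of −0.51. Changes were negative in each line for 8 of the 10, beside 26.5% of all genes. The deoxycytidylate deaminase gene DCTD had −0.53 in SUP-B15 and −0.79 in BV-173 (limma adjusted p = 0.11), the folate enzyme gene MTHFD1 −0.81 and −0.47 (limma adjusted p = 0.0616), and the pyrophosphatase gene DCTPP1 −0.47 and −0.76 (limma adjusted p = 0.0901). Between the lines 5 of the 10 were lower in SUP-B15 and 1 was higher. MTHFD1 gave 814.7 and 1445.4 in treated and untreated SUP-B15, against 4121.6 and 5729 in treated and untreated BV-173 (mean −2.14, SE 0.21, limma adjusted p = 3.18e-23).

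Among other deaminases, 1 of 8 rose with STI571 and 0 fell. It was ADA, adenosine deaminase, at 5145.5 and 2596.3 in treated and untreated SUP-B15 and 3835 and 2320.8 in treated and untreated BV-173 (mean 0.85, SE 0.20, limma adjusted p = 0.00258). ADA acts on free nucleosides and not on DNA. CDADC1, a cytidine deaminase family gene, had a larger mean of −1.26 but did not pass (SE 0.74, limma adjusted p = 0.562). It was dim, at 88.9 and 142.1 in treated and untreated SUP-B15 and 6.6 and 97.5 in treated and untreated BV-173. The AMP deaminase gene AMPD3, at 0.76, did not pass either (limma adjusted p = 0.515).

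For translesion polymerases and their switch, 0 of 8 passed for STI571, with a median of 0.06. REV3L, the catalytic subunit of polymerase zeta, had 0.96 in SUP-B15 and 0.34 in BV-173 (limma adjusted p = 0.113), the polymerase theta gene POLQ −0.16 and −1.28 (limma adjusted p = 0.412), and UBE2A, a ubiquitin-conjugating enzyme that marks the clamp, 0.70 and 0.10 (limma adjusted p = 0.469).

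Interferon response genes, the class to which several APOBEC3 genes belong in other cells, had 0 of 8 called for STI571 and a median of 0.28. IFIT1 had 0.95 in SUP-B15 and 1.52 in BV-173 (limma adjusted p = 0.524), IRF9 0.79 and 0.71 (limma adjusted p = 0.514), and MX1 −0.52 and −0.91 (limma adjusted p = 0.862). IFIT1 was dim, at 186 and 84.3 in treated and untreated SUP-B15 and 85.3 and 13.8 in treated and untreated BV-173. MX1 was too, at 92.4 and 143.6, and 10.7 and 41.5, in the same order. Of the 8 genes in the list, 2 were higher in SUP-B15 than in BV-173 and 0 lower.

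**Figure D4:**
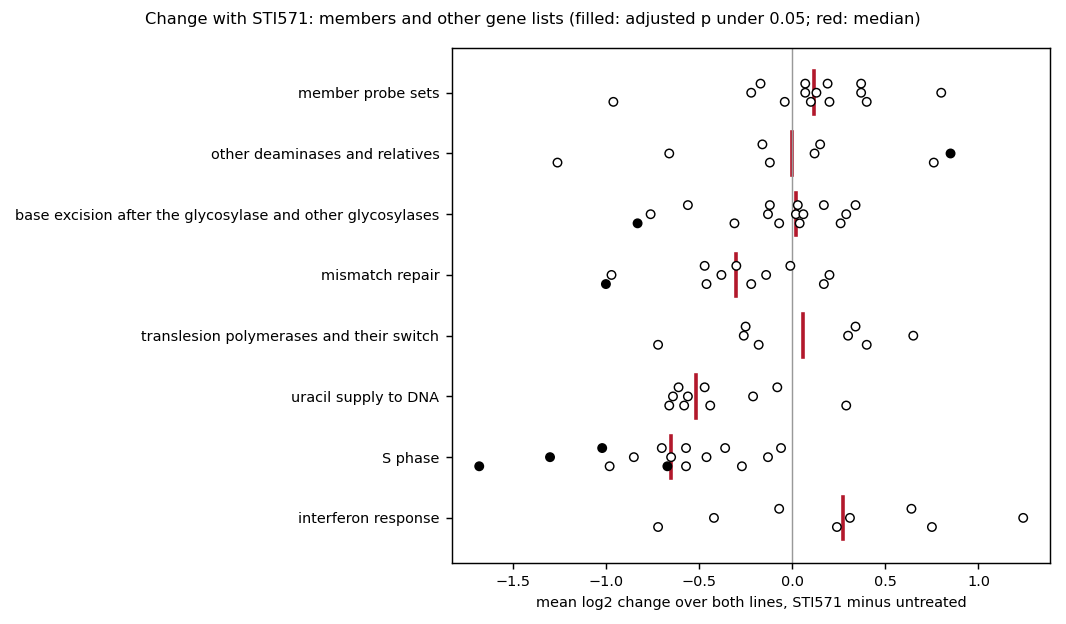
Mean log2 change with STI571 over both lines; each point is a tested member probe set (top row) or the brightest probe set of a gene in 7 related lists, filled where the adjusted p was under 0.05, with the median in red. S phase genes have a median of −0.65 and the member probe sets a median of 0.11.

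The genes whose 4 log2 values, centred on their mean, lay closest to those of UNG among 11817 other tested probe sets with 1 symbol were CNTFR, ADM and ZNF589, with root mean square differences of 0.072, 0.072 and 0.073. ADM, the gene of the peptide adrenomedullin, had 414.2 and 792.4 in treated and untreated SUP-B15 and 652.6 and 1236.8 in treated and untreated BV-173, and passed the test for STI571 (mean −0.90, SE 0.24, limma adjusted p = 0.0124), a call that likewise ended in both of those fits. CNTFR and ZNF589 did not pass (limma adjusted p = 0.499 and 0.549). With 4 arrays, such closeness is a description of these arrays alone.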

How the data were processed

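The authors deposited 1 table with an intensity for each probe set, linear and not logged. The submitters' processing notes name GCOS 1.3. Neither the probe summary nor the target of the scaling is stated, though every column had a 2%-trimmed mean of 500.2. No detection calls were used, so whether a dim probe set was above background is unknown. Per the labels' protocols, RNA came from a Qiagen RNeasy kit and was biotin-labelled for Affymetrix arrays.

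Of 22277 probe sets 62 were controls. Names come from the platform annotation, matched by symbol. Tests were limma 3.58.1 in R 4.3.3 on log2(signal + 24.5), two-sided, with the line and the treatment as terms and variances moderated along an intensity trend. P-values were adjusted by Benjamini-Hochberg (threshold 0.05) over 13408 probe sets that reached the array median in at least 1 array. limma's estimate of the prior degrees of freedom was infinite. The cell line pairs treated with untreated arrays; nothing states separate cultures. The STI571 term of the fit was tested on simulated data, where the share of false calls was above the adjusted threshold in nearly all runs.

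Members and lists were chosen with earlier results of these data known. From each list up to 3 genes with the largest absolute mean change with STI571 are named, and for the member with the largest such change the 3 genes nearest in pattern. Alternatives were other scalings, pseudocounts, filters, probe set choices, variance models and terms. The planned search for a deaminase motif in protein sequences was not run.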

Additional observations from a re-analysis of the deposited data

Results flagged for a closer look

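The lines responded to STI571 in opposite directions in 7 of the 14 tested member probe sets; the difference was not tested, since it takes up the only residual degree of freedom, and with 1 pair of arrays a line any change of sign is listed. The response of SUP-B15 minus that of BV-173, on the log2 scale, was 2.34 for APOBEC3F 214994_at (1.24 in SUP-B15 and −1.10 in BV-173) and 1.11 for APOBEC3B (0.92 and −0.19). These are the 2 members past 2-fold, both with SUP-B15 above, beside 7.81% of all tested probe sets.

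For the others it was smaller. It was 0.46 for the probe set shared by APOBEC3F and APOBEC3G, −0.71 for APOBEC3G 204205_at and 0.45 for MBD4 209580_s_at. TDG gave 0.46 by 203743_s_at and −0.79 by 203742_s_at, so that its probe sets differ in the sign of the difference.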

How the results depend on the processing

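Under all 12 other fits run for STI571, 0 members passed. The fit reported called 369 of 13408 probe sets, and a common median called 235 of 13408. Fewer features were tested in some fits. A filter at the 75th percentile gave 392 of 6792. The brightest probe set per gene gave 242 of 7916, probe sets averaged per gene 116 of 7916 and gene-specific probe sets alone 141 of 5621. Without the intensity trend 0 of 13408 were called, and 0 of 13408 without a block for the cell line. TDG changed sign when its probe sets were averaged (0.08, adjusted p = 0.949; range over its alternatives 0.681 to 1), which averages 2 probe sets of opposite sign. For the line difference, 4 members passed in 10 of the 12 other fits by count; 1 passed without the intensity trend (APOBEC3B) and 1 with gene-specific probe sets alone (APOBEC3G), which leaves 3 members to test. Without the trend adjusted p was 0.103 for APOBEC3C, 0.161 for APOBEC3G and 0.0982 for TDG; the cause was not tested. All probe sets called for the line numbered 3477 of 13408, against 968 of 13408 without the trend and 2187 of 13408 with no treatment term. With fewer features tested they were 2860 of 6792 with a filter at the 75th percentile and 2296 of 7916 with the brightest probe set per gene. They were 2059 of 7916 with the mean and 1492 of 5621 with gene-specific probe sets. MBD4 changed sign between the lines at 0.03 for 209579_s_at and −0.12 for 214048_at with quantile normalization, and at −0.08 for 214048_at with a common median. Counts of members past 2-fold with STI571 were 2 in each line and 2 for the difference of responses. In SUP-B15 the count was 0 with a pseudocount of 98, 4 at 1.5-fold and 0 at 3-fold. In BV-173 it was 0 with that pseudocount and 0 at 3-fold. For the difference of responses it was 1 with that pseudocount, 4 at 1.5-fold and 1 at 3-fold. No paired analysis by replicate number was possible because each group holds 1 array, and leaving out an array leaves no residual degree of freedom.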
